A study of Mus musculus with 108 samples.

Results

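The genes described here are the mouse potassium channel genes, taken as every gene whose symbol on the array begins with Kcn, apart from Kcnj1 and Kcnj13, which mark kidney tubule and choroid plexus and were left out. They number 82 of the 18193 genes measured. By name they comprise 22 pore-forming subunits of voltage-gated channels, 9 modifier subunits that open no channel alone and 12 accessory subunits of voltage-gated channels. A further 13 are inward rectifiers, 12 are tandem-pore-domain leak channels and 8 are pores activated by calcium, sodium or, for Kcnu1, alkalinisation. There are also 3 accessory subunits of calcium-activated channels and 3 genes that are not channel proteins. The last are Kcnq1ot1, a long non-coding RNA, and the antisense RNAs Kcnmb4os1 and Kcnmb4os2. The symbol therefore gathers channels, their partners and a few transcripts named after them.

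The study profiled 6 inbred strains of mice: AKR/J, 129S2, C57BL/6J, DBA2/J, C3HeB/FeJ and A/J. Whole brain, heart, kidney, liver, lung and testis came from males of 11 to 14 weeks, with 3 animals per strain and tissue, and the labels name no treatment. Total RNA was hybridised to one-colour Affymetrix oligonucleotide arrays, 18 per tissue, and the deposited values are log2 signals, so that a difference of 1 is a doubling. By their titles the arrays come from 22 animals, but the labelling protocol speaks of pools of RNA, and 4 arrays carry another animal number in the source name than in the title. The spread between arrays, on which every p-value rests, may therefore be partly technical. The arrays with differing numbers are those of 129S2 brain and the kidney array 129S2 4. For C57BL/6J, the kidney, liver and testis came from other animals than the brain, heart and lung. Each sample is a whole organ, in which fewer cells of a type and less RNA per cell cannot be told apart.

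Potassium channels let potassium ions cross the membrane along their electrochemical gradient. Voltage-gated types end action potentials, inward rectifiers and leak channels set the resting potential, and calcium-activated types follow the calcium level in the cell. In the brain they shape firing and, in glia, take up the potassium that neurons release. In the heart they repolarise the myocyte after each beat, and in kidney epithelium they recycle and secrete potassium.

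Each tissue's own marker genes were the highest of the 6 tissue marker lists on 18 of 18 arrays in every tissue. A few arrays stood apart within a tissue. Genes that differed between 129S2 and AKR/J by more than 1 log2 unit in every other tissue placed the brain array 129S2 2 at 0.714 of the way to AKR/J, and the brain array AKR/J 2 at 0.67 of the way to 129S2, where 0 is the array's own strain and 1 the other. The next highest such position on any other array was 0.1. The array 129S2 2 is among those whose source name gives another animal number than the title, and AKR/J 2 is not. Both arrays keep their labels here, and brain results are given with and without them. On heart arrays the mean log2 signal of 5 atrial markers, such as the atrial myosin light chains Myl7 and Myl4, ran from 5.90 to 12.81 and differed widely between animals of one strain. The lung array C3HeB/FeJ 3 had a mean of 9.77 over 8 skeletal muscle markers, against 5.65 to 6.42 on the other lung arrays. No value was tested against background, so a mean log2 signal below 6 is called low and not absent. A fold against a strain with a low signal describes the signals and need not equal the fold in RNA.

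Strain differences were common among these genes. The share that passed was above that of all genes in brain and below it in the other 5 tissues, and these shares were not tested against each other. A moderated F test of the 6 strain means, at an adjusted p under 0.05, was passed in brain by 24 of the 82 genes (29.3%), where it called 23.1% of all genes. In testis 31 passed (37.8%, against 40.5% of all genes), in kidney 20 (24.4%, against 46.1%), in lung 19 (23.2%, against 32.5%), in liver 13 (15.9%, against 31.6%) and in heart 12 (14.6%, against 21.0%). Many members have a low signal outside the brain. Among members with a mean of at least 6 in the tissue, 23 of 64 passed in brain (35.9%, against 29.6% of all genes at that level). In testis 23 of 36 passed (63.9%, against 52.1%) and in heart 8 of 22 (36.4%, against 31.9%). In lung 15 of 42 passed (35.7%, against 40.5%), in kidney 11 of 24 (45.8%, against 62.6%) and in liver 4 of 9 (44.4%, against 49.3%). At that level the share of members was thus the higher in brain, testis and heart, again without a test. The median distance between the highest and lowest strain means was 0.205 for members and 0.192 for all genes in brain, and 0.246 and 0.277 in heart. Among genes with a mean of at least 6 it was 0.209 and 0.195 in brain, and 0.425 and 0.341 in heart. Most calls were modest: of the 119 calls of a gene in a tissue, 57 spanned under 0.5 and 16 spanned at least 1. The latter were 8 in testis (4.09% of all genes there passed and spanned at least 1), 3 in lung (5.21%), 2 in heart (3.57%), and 1 each in brain (1.64%), kidney (5.07%) and liver (5.66%). Of the 1230 strain pairs of members in a tissue, 168 passed in testis (13.7%, against 15.8% of the pairs of all genes). In brain 107 passed (8.7%, against 7.16%), in kidney 103 (8.37%, against 18.5%) and in lung 92 (7.48%, against 11.4%). In liver 59 passed (4.8%, against 11.7%) and in heart 57 (4.63%, against 6.59%). No member passed in every tissue. Altogether 17 members passed in none, 31 in 1, 19 in 2, 10 in 3 and 5 in 4. The same was not counted over all genes, so these numbers do not set the members apart from other genes.

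In brain, the inward rectifiers that glia use and the G protein-gated inward rectifiers of neurons included several of the genes with the widest strain differences. Of the 13 inward rectifiers, 5 passed (23.1% of all genes): Kcnj16, Kcnj10, Kcnj9, Kcnj6 and Kcnj4. Kcnj10, the main potassium-buffering channel of astrocytes, was lowest in C57BL/6J. Its log2 signals in C57BL/6J were 9.59, 9.60 and 9.46, a mean of 9.55 ± 0.08 (SD, n = 3), and in DBA2/J, the highest strain, 10.28, 10.43 and 10.25, a mean of 10.32 ± 0.10. The other strain means lay between 10.14 and 10.30, so that C57BL/6J stood below 5 strains that overlapped each other. C57BL/6J was 0.77 ± 0.063 (SE) lower than DBA2/J, or 1.71-fold, and the F test gave an adjusted p of 7.74e-07 (limma). It differed from its nearest neighbour, C3HeB/FeJ, by 0.59 with an adjusted p of 9.83e-06. Without the 129S2 2 and AKR/J 2 arrays the range was 0.796 and the adjusted p 1.28e-06. The mean log2 signal of 6 astrocyte markers ran from 10.83 to 10.88 in C57BL/6J and from 10.72 to 10.90 in the other strains, so these markers were not low in C57BL/6J.

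Kcnj9, which encodes a G protein-gated inward rectifier subunit, is the neighbour of Kcnj10 on chromosome 1. The annotated starts lie 11888 bases apart on opposite strands, so that their start regions face away from each other across a short interval. The regions from 250 bases before to 50 after the start are shown for both, because in brain each gene set C57BL/6J apart from the other 5 strains (RefSeq, GRCm38.p6). Capitals mark the motifs searched on both strands: the TATA box TATAAA, the GC box GGGCGG, the E-box CACGTG and the CCAAT box CCAAT. Among 32851 mouse start regions of the same length, 13.6% hold the TATA box, 35.7% the GC box, 7.15% the E-box and 37.4% the CCAAT box. Of the 82 members, 62 have an entry in that table.

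Kcnj9, chr1:172329273-172329572, minus strand: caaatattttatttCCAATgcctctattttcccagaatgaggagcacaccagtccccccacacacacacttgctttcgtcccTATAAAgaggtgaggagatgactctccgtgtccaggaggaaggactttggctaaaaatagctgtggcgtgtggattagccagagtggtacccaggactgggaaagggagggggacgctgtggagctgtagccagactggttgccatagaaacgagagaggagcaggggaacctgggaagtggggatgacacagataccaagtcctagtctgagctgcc

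Kcnj10, chr1:172340960-172341259, plus strand: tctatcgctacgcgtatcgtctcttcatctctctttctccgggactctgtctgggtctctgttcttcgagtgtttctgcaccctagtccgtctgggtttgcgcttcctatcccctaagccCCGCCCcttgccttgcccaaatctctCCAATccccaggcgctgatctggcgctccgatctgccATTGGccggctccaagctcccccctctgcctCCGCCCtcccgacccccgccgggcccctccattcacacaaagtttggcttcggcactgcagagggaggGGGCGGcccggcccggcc

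The Kcnj9 region holds 1 match to the TATA box, at -168 bases from the start, and 1 to the CCAAT box, at -236. That of Kcnj10 holds 3 GC boxes and 2 CCAAT boxes and is richer in G and C, at 63.7% against 52.3%. Neither holds the E-box. These are matches of letters only, and whether they act was not tested.

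The probe sets of Kcnj9 did not give 1 answer in brain. The probe set used here, chosen as the brightest over all tissues, read 8.71, 8.57 and 8.64 in C57BL/6J and 7.96, 7.96 and 7.92 in C3HeB/FeJ, the lowest strain. By this probe set C57BL/6J was the highest strain, 0.56 above the next, DBA2/J (adjusted p 1.81e-06), and the range was 0.695 ± 0.052 (SE) with an adjusted p of 2e-07. A second probe set was brighter in brain and read 8.73, 8.75 and 8.74 in C57BL/6J and 10.27, 10.29 and 10.42 in A/J. There C57BL/6J was the lowest strain by a wide margin and its arrays did not overlap with any other. The difference between C57BL/6J and C3HeB/FeJ was -1.40 (adjusted p 9.88e-10 over all probe sets). The third also placed C57BL/6J lowest, at 7.74, 7.59 and 7.75 against 8.11 to 8.66 in the other strains. The difference was -0.627 (adjusted p 0.000246). The fourth had a low signal and did not pass, with a difference of -0.0663 (adjusted p 0.721). Whether strain differences in the sequence under the probes contribute was not tested. The direction for Kcnj9 in brain is therefore not settled by these arrays, whereas that for Kcnj10 rests on 1 probe set.

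**Figure D1:**
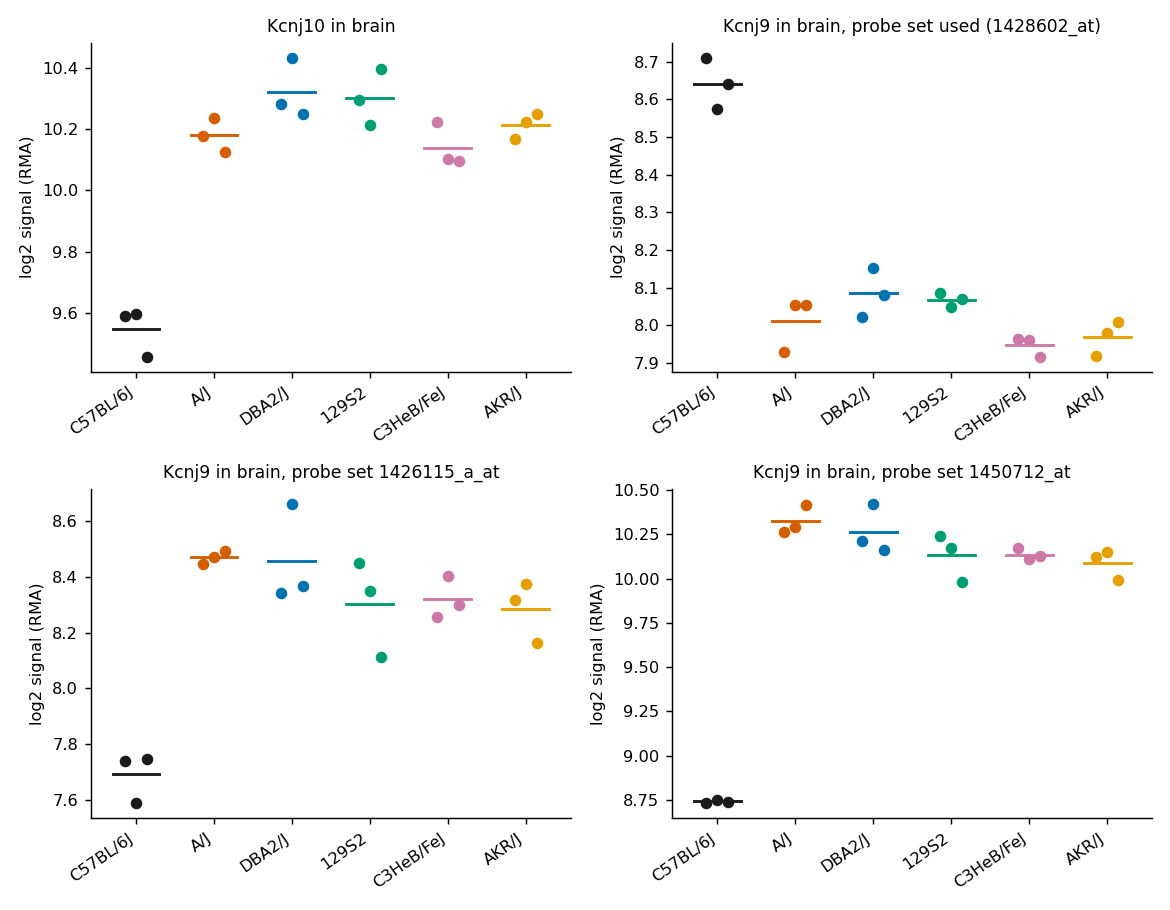
Log2 signal of Kcnj10 and of the 3 Kcnj9 probe sets with a mean of at least 6 on the 18 brain arrays, by strain; points are arrays and bars are means of 3. C57BL/6J lies below the other strains for Kcnj10 and for 2 Kcnj9 probe sets, and above them for the Kcnj9 probe set used in the tests.

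Kcnj16, whose product joins with that of Kcnj10 in glia and kidney tubules, had the widest brain range of all members and was lowest in AKR/J. Its log2 signals were 6.60, 7.40 and 6.66 in AKR/J, 7.81, 6.91 and 7.65 in 129S2, and in DBA2/J they were 7.95, 7.93 and 8.05. The second array of AKR/J and the second of 129S2 are those that lie between the strains, and they account for the overlap of these groups. DBA2/J exceeded AKR/J by 1.09 ± 0.196 (SE), 2.13-fold, with an adjusted p of 0.00544. Without both arrays the range widened to 1.35 and the adjusted p fell to 7.48e-08. A further Kcnj16 probe set gave 0.812 for the same contrast (adjusted p 0.00618). Kcnj6, another G protein-gated subunit, was low in AKR/J and 129S2, at means of 6.02 and 6.00, against 6.39 to 6.52 in the other strains, with an adjusted p of 0.00335. None of its 4 dimmer probe sets passed for that contrast, and the mean of all its probe sets lost the call (0.716). In Kcnj4, a neuronal inward rectifier, the range was only 0.23 (adjusted p 0.0476), and the call ended in 14 of the 18 fits that left out 1 array, with an adjusted p up to 0.175.

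Among calcium-activated pores, Kcnma1, the large-conductance channel, was lowest in AKR/J. It read 9.30, 9.75 and 9.14 there and 10.16, 10.11 and 10.22 in C57BL/6J, with the AKR/J 2 array the nearest to the rest. AKR/J lay 0.768 ± 0.118 (SE) below C57BL/6J with an adjusted p of 0.00148, and below each of the other strains. Without the arrays 129S2 2 and AKR/J 2 the range was 0.944 and the adjusted p 1.18e-06. Of the 4 other Kcnma1 probe sets, 2 gave differences in the same direction, 1.603 and 0.657. Another gave 0.217 (adjusted p 0.135), and the brightest in brain gave 0.0163 (adjusted p 0.95). Kcnn2, a small-conductance channel, was higher in A/J (8.91 ± 0.06) and 129S2 (8.88 ± 0.10) than in C57BL/6J (8.55 ± 0.06). Its range of 0.358 had an adjusted p of 0.0274, which passed 0.05 when any of 6 arrays was left out, C57BL/6J 2 or 3, A/J 2 or 3, or 129S2 1 or 3 (up to 0.0685). Without the arrays 129S2 2 and AKR/J 2 the lowest strain was AKR/J (8.38) and the highest 129S2 (8.94), with an adjusted p of 9.08e-06.

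Kcnh1, an ether-à-go-go channel, separated AKR/J and C57BL/6J from the rest. Its log2 signals were 9.15, 8.53 and 8.89 in AKR/J, 8.17, 8.04 and 8.17 in DBA2/J, and 8.80, 8.98 and 8.70 in C57BL/6J. In 129S2 they were 8.09, 8.90 and 8.04, with only the second array at the AKR/J level. The range was 0.733 ± 0.176 (SE, adjusted p 0.00736) with all arrays and 0.957 (adjusted p 1.21e-06) without the 2 arrays. A brighter Kcnh1 probe set showed no difference of that kind, with -0.0356 between AKR/J and DBA2/J (adjusted p 0.844).

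**Figure D2:**
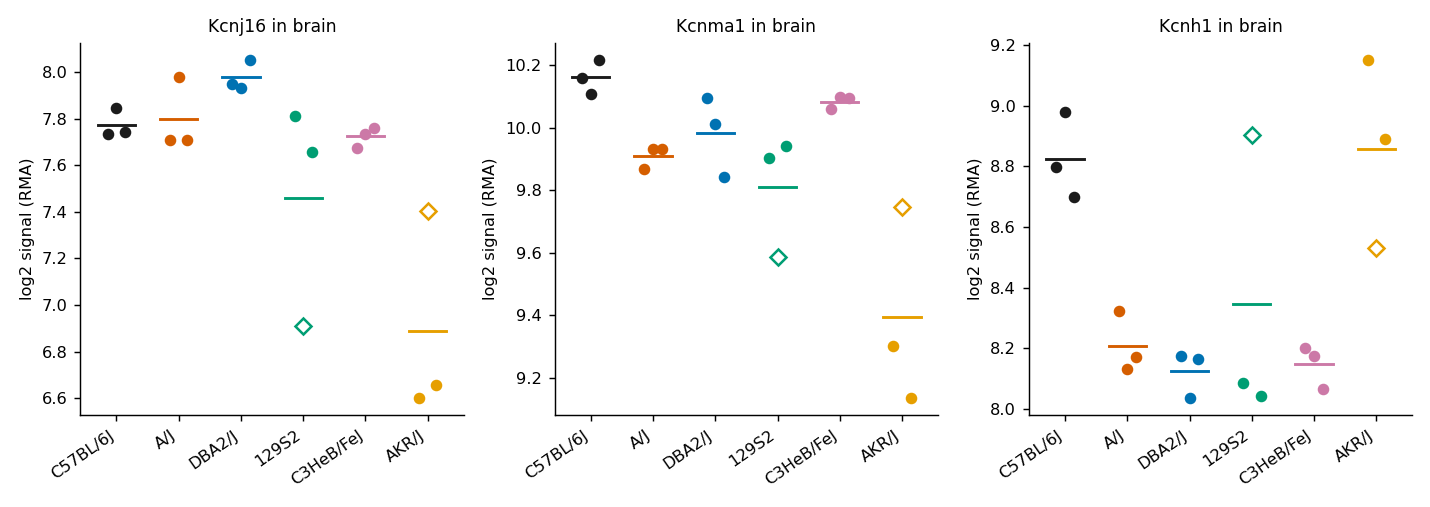
Log2 signal of Kcnj16, Kcnma1 and Kcnh1 on the 18 brain arrays, by strain; filled points are arrays, bars are means of 3, and open diamonds are 129S2 2 and AKR/J 2. In each plot the 2 diamonds lie between, or near, the remaining arrays of the other strain.

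The remaining brain genes moved by less. Kcnk1, a tandem-pore leak channel, was 11.13 ± 0.02 in DBA2/J and 11.09 ± 0.03 in C57BL/6J, against 10.62 ± 0.03 in A/J and 10.64 ± 0.08 in C3HeB/FeJ. The groups did not overlap, the range was 0.506 ± 0.065 (SE) with an adjusted p of 2.72e-05, and its other probe set gave 0.523. Kcnk2, a leak channel opened by stretch and lipids, was highest in C57BL/6J (9.77 ± 0.08) and lowest in AKR/J (9.42 ± 0.03), with an adjusted p of 0.00151. Kcnf1, a modifier subunit, was highest in C57BL/6J at 8.04, 8.09 and 8.23, with the other strain means at 7.71 to 7.84 (adjusted p 0.00583), and its brighter probe set gave a range of 0.607. Kcnip3, a calcium-binding partner of transient outward channels, was 9.81 ± 0.03 in C57BL/6J and 9.45 ± 0.05 in AKR/J (adjusted p 0.000139), and its other probe set gave 0.308 between the same strains.

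The Shaker-type pores showed small differences. Kcna2 was lowest in A/J (7.71 ± 0.02) and highest in 129S2 (8.09 ± 0.10), with an adjusted p of 0.0143. The call ended without A/J 2 (0.0622) or A/J 3 (0.066), and 2 brighter Kcna2 probe sets did not pass. Kcna5 was highest in C57BL/6J (7.25 ± 0.18) and lowest in 129S2 (6.85 ± 0.15), with an adjusted p of 0.0168. Kcna4 had an adjusted p of 0.0499 with a range of 0.338, which ended in 13 of the 18 fits that left out 1 array (up to 0.152). On the 16 arrays without 129S2 2 and AKR/J 2, 23 members passed (27.5% of all genes), and 20 of them were among the 24. Kcna4, Kcna1, Kcnc2 and Kcnu1 were then lost, and Kcnab2, Kcnn3 and Kcnmb4os1 were gained. These 7 were named after their values were seen.

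Only 1 brain call had a low signal. Kcne2, an accessory subunit that is abundant in choroid plexus, was low in 129S2 (5.52 ± 0.25) and AKR/J (5.58 ± 0.10) and higher in DBA2/J (6.24 ± 0.28), with an adjusted p of 0.0008 and a range of 0.717 ± 0.134 (SE). The mean of 6 choroid plexus markers ran from 7.60 to 7.78 in 129S2, 7.70 to 7.88 in AKR/J and 7.91 to 8.15 in DBA2/J. That is the same order, for these strains only. The marker mean averaged 8.035 in A/J, against 8.037 in DBA2/J, and 7.945 in C57BL/6J and 7.864 in C3HeB/FeJ. The part of these markers in the result was not tested. Of the 37 brain-related members listed for this tissue, 16 passed (against 23.1% of all genes, and 29.6% of all genes with a mean of at least 6). The median range of the 37 was 0.23, against 0.192 for all genes and 0.195 for all genes with a mean of at least 6.

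In heart the largest strain difference of any member belonged to Kcnj14, an inward rectifier. Its log2 signals were 8.34, 8.39 and 8.72 in DBA2/J, 8.12, 7.75 and 8.15 in C3HeB/FeJ, and 6.69, 6.95 and 7.04 in 129S2. They were 4.64, 4.81 and 4.90 in A/J, 4.83, 4.68 and 4.58 in AKR/J, and 3.99, 4.11 and 4.52 in C57BL/6J. The strains thus fell into a high, a middle and a low level with no overlap between levels. DBA2/J exceeded C57BL/6J by 4.28 ± 0.146 (SE), 19.4-fold on the signal scale, with an adjusted p of 4.01e-13. The C57BL/6J signal is low, so this fold describes the signals only. In all, 12 of the 15 strain pairs differed. DBA2/J and C3HeB/FeJ (difference 0.48, adjusted p 0.0592), AKR/J and C57BL/6J (0.49, adjusted p 0.0522), and A/J and AKR/J did not.

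In brain, kidney, liver and testis the Kcnj14 strain means lay between 3.39 and 4.54, and the F test was not passed. Array medians differ by tissue, from 4.95 in liver to 6.83 in lung, so levels of different tissues are set side by side without a test. In lung A/J was highest, at 5.20, 5.13 and 5.21, and C57BL/6J lowest, at 4.00, 4.14 and 4.18 (range 1.07 ± 0.118 SE, adjusted p 5.12e-05), an order unlike that in heart. The test of strain by tissue gave an adjusted p of 5.46e-43. Kcnj14 has a single probe set, and whether sequence differences under its probes contribute was not tested. Adjusting for the atrial markers left the range at 4.29.

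**Figure D3:**
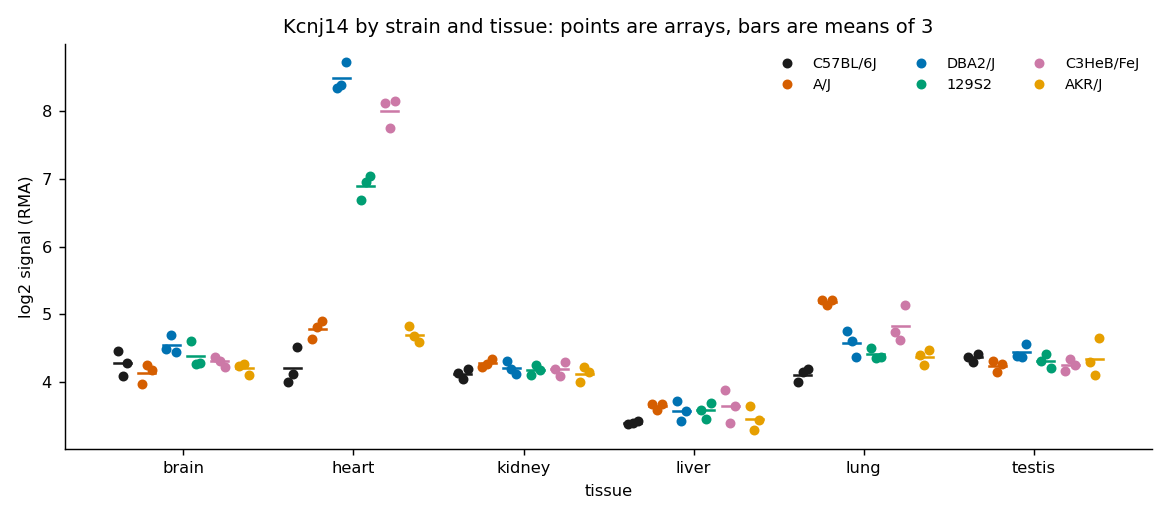
Log2 signal of Kcnj14 on the arrays of all 6 tissues, grouped by tissue and coloured by strain; points are arrays and bars are means of 3. DBA2/J, C3HeB/FeJ and 129S2 hearts lie at 6.69 to 8.72, above every array of the other strains and tissues.

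The transient outward current of the mouse ventricle is carried by Kcnd2 and Kcnd3 with the accessory subunit Kcnip2. All 3 passed in heart, but not in 1 common strain order. Kcnd2 read 9.21, 8.94 and 8.95 in A/J and 8.25, 8.13 and 7.83 in AKR/J, without overlap. A/J was 0.963 ± 0.151 (SE) higher, 1.95-fold, with an adjusted p of 0.00209, and 2 further Kcnd2 probe sets gave 0.916 and 1.01. Kcnd3 was likewise highest in A/J (7.24 ± 0.08) and lowest in AKR/J (6.57 ± 0.19), at an adjusted p of 0.0421. That call ended in 11 of the 18 fits without 1 array, most clearly without AKR/J 2 (0.15) or AKR/J 3 (0.128). Kcnip2, the brightest of the 3 at a mean of 10.54, was highest in DBA2/J (10.86 ± 0.06) and lowest in 129S2 (10.34 ± 0.43), at an adjusted p of 0.0312. It too was lost in 9 of the 18 fits, with an adjusted p up to 0.0772 without DBA2/J 3, and neither of its other probe sets passed for that contrast. With the mean of the atrial markers as a covariate its range of 0.526 became 0.252 ± 0.115 (SE), while the F test over all strains gave an adjusted p of 0.00656. The start region of Kcnd2 is shown because its 3 brighter probe sets gave the same direction; it holds 1 GC box and none of the other motifs, and 68.7% of its bases are G or C.

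Kcnd2, chr6:21215096-21215395, plus strand: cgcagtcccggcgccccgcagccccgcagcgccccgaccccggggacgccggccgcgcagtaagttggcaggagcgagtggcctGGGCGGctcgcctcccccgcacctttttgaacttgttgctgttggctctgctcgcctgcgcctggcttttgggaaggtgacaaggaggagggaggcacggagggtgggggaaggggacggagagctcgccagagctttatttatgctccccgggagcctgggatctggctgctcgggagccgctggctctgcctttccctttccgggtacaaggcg

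Kcnj11, the pore of the ATP-sensitive channel of heart muscle, split the strains evenly. It read 8.91, 8.80 and 9.06 in A/J and 8.88, 9.11 and 9.01 in AKR/J, while C57BL/6J read 9.13, 8.97 and 9.18. In DBA2/J it read 8.47, 8.58 and 8.55, in C3HeB/FeJ 8.48, 8.43 and 8.53, and in 129S2 8.43, 8.32 and 8.59. The 3 higher strains did not overlap with the 3 lower ones, and the 9 pairs that passed were exactly those between them. C57BL/6J exceeded 129S2 by 0.648 ± 0.092 (SE), 1.57-fold, with an adjusted p of 4.5e-05, and a further probe set gave 0.960. Abcc8, a regulatory subunit of such channels, was highest in C57BL/6J (7.95) and lowest in DBA2/J (6.82), with an adjusted p of 4.53e-05.

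Kcnj3, the G protein-gated inward rectifier subunit of atrial myocytes, was lowest in DBA2/J. It read 6.80, 6.85 and 6.66 there, against 7.84, 8.07 and 8.13 in C3HeB/FeJ. In 129S2, C57BL/6J and AKR/J the arrays of a strain were spread widely, from 7.15 to 8.41, and overlapped with C3HeB/FeJ but not with DBA2/J. C3HeB/FeJ exceeded DBA2/J by 1.24 ± 0.284 (SE), with an adjusted p of 0.0359, and 9 of the 18 fits without 1 array lost the call, up to 0.141 without DBA2/J 3. The atrial markers moved with it. Their mean was 6.60 to 7.97 in DBA2/J and 12.42 to 12.74 in C3HeB/FeJ, and within C57BL/6J, 129S2 and AKR/J the array with the lowest Kcnj3 was also the one with the lowest marker mean (5.90, 7.05 and 6.91). With the marker mean as a covariate, chosen after seeing these values, C3HeB/FeJ exceeded DBA2/J by 0.35 ± 0.155 (SE), and the F test over all 6 strains gave an adjusted p of 0.0187. The marker means of these strains do not overlap, so the 0.35 extrapolates a common slope (0.164 per log2 unit of the marker mean). For this contrast strain and atrial markers cannot be told apart. Kcnj5, the other subunit of that channel, did not pass (range 0.35, adjusted p 0.646).

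**Figure D4:**
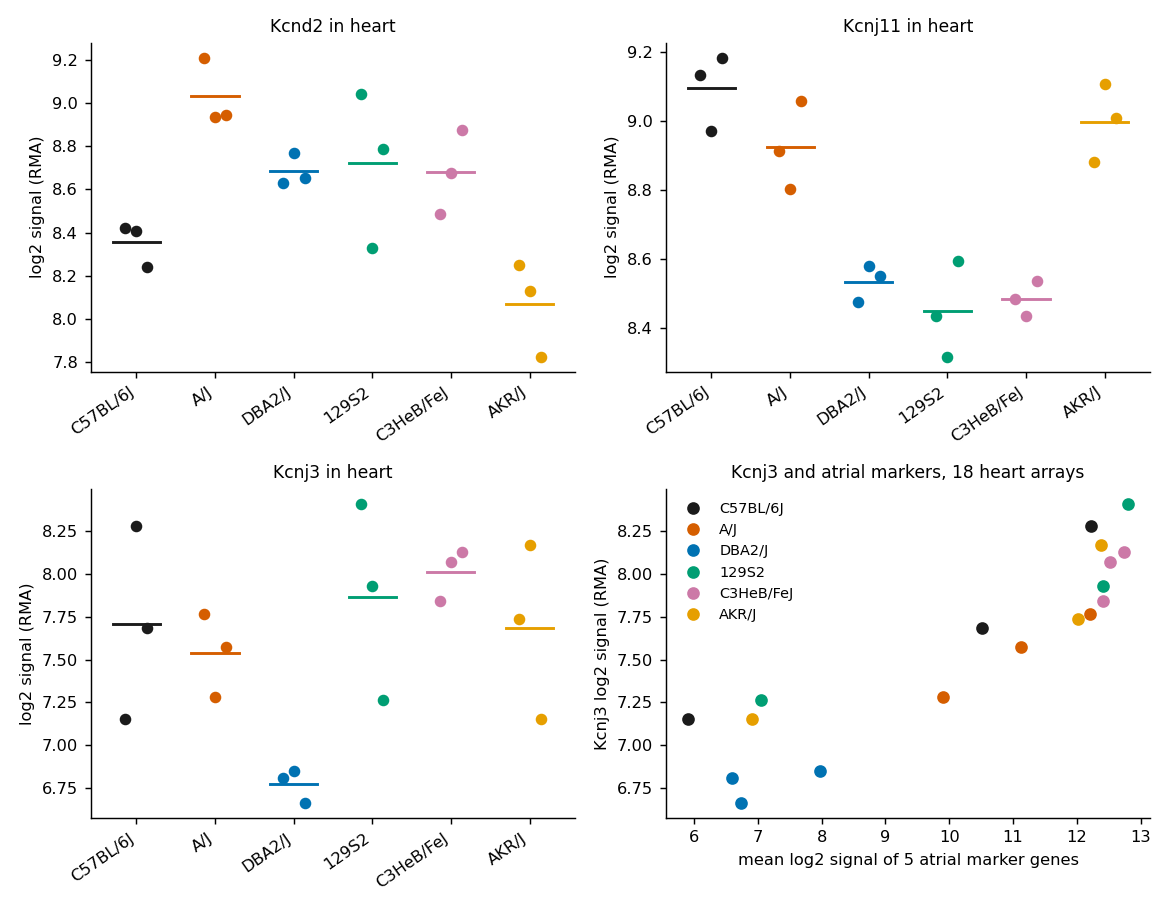
Log2 signal of Kcnd2, Kcnj11 and Kcnj3 on the 18 heart arrays by strain (points are arrays, bars are means of 3), and Kcnj3 against the mean log2 signal of 5 atrial marker genes on the same arrays. Kcnj11 splits the strains 3 against 3, and the 6 arrays with an atrial marker mean under 8 have Kcnj3 signals of 6.66 to 7.26.

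Kcnn2 in heart was highest in C57BL/6J, at 6.77, 6.44 and 6.76, and lowest in DBA2/J, at 5.51, 5.84 and 5.87. The 2 strains did not overlap, and the range was 0.916 ± 0.174 (SE) with an adjusted p of 0.00981. Kcnh3, an ether-à-go-go-like pore better known from forebrain, was 7.96 ± 0.02 in C57BL/6J and 7.62 ± 0.05 in DBA2/J (adjusted p 0.0165). Of its 3 other probe sets 1 gave the same direction with a call, and the mean of all probe sets lost the call (0.082). Of the 4 calls with a low signal, Kcnk2 was widest, at 5.04 ± 0.16 in A/J and 4.29 ± 0.08 in C57BL/6J (adjusted p 0.00462). Kcne1, the partner of Kcnq1 in the slow delayed rectifier, was also among them, and its brighter probe set in heart ranged over 2.18 (adjusted p 2.27e-06). On that probe set AKR/J (5.60 ± 0.49) and C57BL/6J (5.81 ± 0.22) were lowest and C3HeB/FeJ (7.78 ± 0.34) was highest.

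Of the 19 heart-related members listed for this tissue, 8 passed (against 21.0% of all genes). Of the 12 with a mean of at least 6, 6 passed (against 31.9% of all genes at that level). The median range of the 19 was 0.526, against 0.277 for all genes and 0.341 for all genes with a mean of at least 6. Others of the list with a mean of at least 6 did not pass. Kcna5, a pore of the ultrarapid delayed rectifier, ranged over 1.12 with an adjusted p of 0.06, and its 3 arrays of 129S2 read 6.31, 8.09 and 7.27. It passed without 129S2 2 (range 1.55, 0.00182) and without 129S2 1 (range 0.659, 0.0472). Kcnh2, the rapid delayed rectifier, ranged over 0.62 (adjusted p 0.221), Kcnk3, an acid-sensitive leak channel, over 0.478 (0.215), Kcnq1 over 0.437 (0.301) and Kcnj8, an ATP-sensitive pore, over 0.343 (0.152). For Kcnj2 and Kcnj12, the classical inward rectifiers of ventricle, the signal was low and neither passed (0.238 and 0.126).

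In kidney the widest ranges belonged to the tandem-pore leak channels Kcnk1 and Kcnk5, although 3 of the 12 genes of that family passed (46.1% of all genes). Kcnk1 read 9.60, 10.31 and 9.76 in DBA2/J, 10.02, 9.76 and 9.75 in 129S2, and 9.70, 9.73 and 9.85 in C57BL/6J. It read 8.57, 8.63 and 8.61 in A/J, 8.70, 8.60 and 8.72 in C3HeB/FeJ, and 9.23, 9.29 and 9.02 in AKR/J. C3HeB/FeJ and A/J were low, AKR/J was between, and the other 3 strains were high with no overlap between levels. DBA2/J exceeded A/J by 1.29 ± 0.130 (SE), 2.44-fold, with an adjusted p of 1.47e-07, and the other probe set gave 1.28. DBA2/J and C57BL/6J above A/J and C3HeB/FeJ was the order in brain as well. The start region of Kcnk1 is shown because its 2 probe sets gave the same direction in brain, kidney, liver and testis; it holds none of the 4 motifs.

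Kcnk1, chr8:125994852-125995151, plus strand: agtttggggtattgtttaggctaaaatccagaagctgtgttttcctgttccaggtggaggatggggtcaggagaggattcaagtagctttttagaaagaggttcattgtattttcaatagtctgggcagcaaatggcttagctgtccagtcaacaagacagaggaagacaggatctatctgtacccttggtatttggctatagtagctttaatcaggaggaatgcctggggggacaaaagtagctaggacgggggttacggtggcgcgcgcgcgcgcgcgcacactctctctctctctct

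Kcnk5, a leak channel of the proximal tubule, was highest in C3HeB/FeJ, at 10.54, 10.54 and 10.56, and lowest in 129S2, at 9.90, 9.56 and 9.79. C3HeB/FeJ was 0.801 ± 0.145 (SE) higher, with an adjusted p of 0.00075, and the other probe set gave 0.909. Kcnq1 was highest in C57BL/6J (8.09 ± 0.04) and lowest in DBA2/J (7.48 ± 0.14), with an adjusted p of 1.52e-06 and 11 of 15 pairs apart. Of the basolateral pair of distal tubules, Kcnj10 was high in A/J (8.23 ± 0.06) and 129S2 (8.23 ± 0.07) and low in C3HeB/FeJ (7.74 ± 0.08) and DBA2/J (7.76 ± 0.05), with an adjusted p of 4.17e-06. C57BL/6J, lowest in brain, was at 7.92 ± 0.06. Kcnj16 was highest in AKR/J, at 12.02, 12.10 and 12.09, and lowest in 129S2, at 11.62, 11.68 and 11.73 (range 0.39 ± 0.068 SE, adjusted p 0.00183).

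The mean of 7 distal tubule markers was 11.62 to 11.70 in 129S2, 11.45 in A/J, 10.89 to 11.10 in DBA2/J and 11.16 to 11.24 in C3HeB/FeJ. In AKR/J it was 11.54 to 11.60 and in C57BL/6J 11.46 to 11.54. The strains low for Kcnj10 were thus also low for these markers, but A/J, high for Kcnj10, lay below AKR/J and C57BL/6J for them. The part of the markers in the result was not tested. Kcnj8 was highest in C3HeB/FeJ (7.57 ± 0.03) and lowest in 129S2 (7.01 ± 0.19), with an adjusted p of 0.0055. Kcnt1, a sodium-activated pore, was highest in 129S2 (6.58 ± 0.14) and lowest in DBA2/J (6.06 ± 0.14), with an adjusted p of 0.00361. Kcnd3 was called at 0.0479 with a range of 0.418, and the call ended in 14 of the 18 fits without 1 array, up to 0.203 without DBA2/J 2. Of the 9 kidney-related members listed, all with a mean of at least 6, 6 passed, a share near that of all genes at that level (62.6%). Kcnj15, a tubular inward rectifier with a mean of 10.50, did not (range 0.229, adjusted p 0.411), nor did Kcnn4 (0.271). Kcne1 lay at the threshold (0.0504) and passed under 10 of 26 alternatives, with an adjusted p of 0.00122 for its brighter probe set. The widest of the 9 calls with a low signal was Kcnc2, over 0.57.

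In testis the accessory subunits of voltage-gated channels held several of the widest differences. Of the 12, 10 passed (against 40.5% of all genes), and so did 8 of the 8 with a mean of at least 6 (against 52.1% of all genes at that level). Kcnab1, a cytoplasmic beta subunit that speeds inactivation of Shaker-type channels, split the strains into 2 levels. It read 8.38, 8.16 and 7.98 in 129S2, 8.21, 8.08 and 8.14 in DBA2/J, and 7.72, 7.79 and 8.25 in AKR/J. In C57BL/6J it read 5.15, 5.75 and 6.04, in A/J 5.97, 5.25 and 5.83, and in C3HeB/FeJ 6.27, 5.48 and 5.96. No array of the lower strains reached the upper level, and the 9 pairs between the levels were those that passed. 129S2 exceeded C57BL/6J by 2.52 ± 0.226 (SE), 5.75-fold, with an adjusted p of 7.43e-09, and the other probe set gave 2.15. The strain-by-tissue test for Kcnab1 had an adjusted p of 5.47e-26.

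Kcnab2, the related subunit, was high in 129S2 alone, at 8.21, 8.17 and 8.38, with the other strain means at 7.20 to 7.51. 129S2 exceeded the next strain, C3HeB/FeJ, by 0.75 (adjusted p 3.3e-05), and the range was 1.05 ± 0.101 (SE, adjusted p 1.59e-06), with 1.13 on the other probe set. Kcnip2 was high in 129S2 (8.57 ± 0.08), C3HeB/FeJ (8.54 ± 0.03) and AKR/J (8.47 ± 0.12) and lower in C57BL/6J (7.79 ± 0.09), A/J (7.91 ± 0.07) and DBA2/J (7.99 ± 0.10). The 2 sets did not overlap, and the adjusted p was 4.19e-08. Kcne3, an accessory subunit of Kcnq1 in epithelia, was 10.25 ± 0.11 in AKR/J and 9.41 ± 0.05 in C3HeB/FeJ (adjusted p 1.46e-07). Among the 8 calls with a low signal Kcnip4, a relative of Kcnip2, was widest. It read 6.65, 6.32 and 6.49 in C57BL/6J and 5.42, 5.87 and 5.79 in 129S2, while the strains below had means of 4.85 to 5.02. C57BL/6J exceeded C3HeB/FeJ by 1.64 ± 0.113 (SE, adjusted p 6.56e-09), and 2 other probe sets gave 2.40 and 2.51.

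Of the pores in testis, Kcnj9 was highest in C57BL/6J, at 7.85, 8.16 and 8.26, and lowest in AKR/J, at 6.37, 6.52 and 6.61. C57BL/6J exceeded the next strain, DBA2/J, by 1.03 (adjusted p 5.5e-07). Of the 2 probe sets that opposed this one in brain, the dimmer gave 0.775 in the same direction here (adjusted p 0.000131) and the brighter 0.158 (adjusted p 0.466). Kcnk1 was highest in AKR/J, at 6.59, 7.22 and 7.21, and lowest in 129S2, at 5.77, 6.08 and 5.85 (range 1.11 ± 0.246 SE, adjusted p 0.00645). Kcnk2 was among the most sharply separated genes. It read 6.31, 6.47 and 6.51 in C57BL/6J and 6.20, 6.15 and 6.27 in DBA2/J, against 7.07 to 7.32 on the 12 arrays of the other strains. C3HeB/FeJ exceeded DBA2/J by 1.03 ± 0.059 (SE, adjusted p 1.05e-10), and no pair among the 4 higher strains passed. Kcng1, a modifier subunit, was 6.65 ± 0.21 in C57BL/6J and 5.60 ± 0.28 in 129S2 (adjusted p 6.24e-05). Its other probe set did not pass for that contrast.

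Kcnu1, the alkalinisation-gated potassium channel of sperm, was bright, with a mean of 9.55. It differed little between strains, from 9.36 ± 0.11 in A/J to 9.69 ± 0.14 in C57BL/6J (adjusted p 0.00921). Its partner Lrrc52 was 8.89 in AKR/J and 8.19 in 129S2 (adjusted p 1.85e-06). In testis 6 genes of a joint Leydig and Sertoli cell list averaged 9.83 to 9.94 in AKR/J and 9.21 to 9.56 in the other strains. The mean of 6 smooth muscle markers was 7.67 to 8.66 in AKR/J and 7.47 to 8.01 in the other strains. AKR/J was the highest strain for Kcne3 and Kcnk1, and the part of these cells in those results was not tested. Means of 8 germ cell markers lay between 13.56 and 13.64 in every strain.

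**Figure D5:**
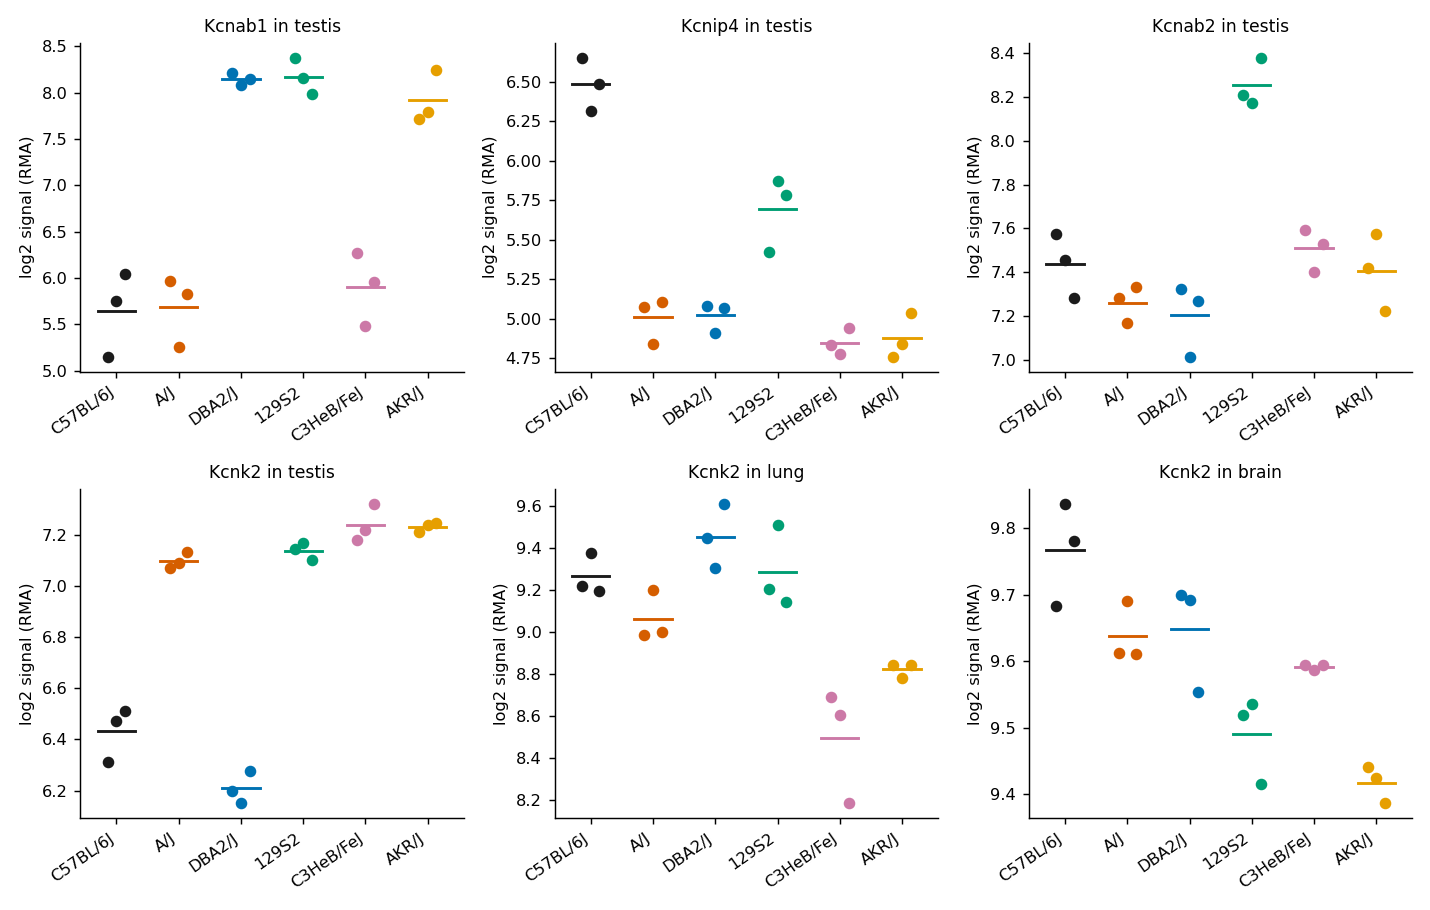
Log2 signal by strain of Kcnab1, Kcnip4 and Kcnab2 in testis, and of Kcnk2 in testis, lung and brain; points are arrays and bars are means of 3. Kcnab1 has 2 levels of 3 strains each, and Kcnk2 is low in C57BL/6J and DBA2/J in testis but not in lung or brain.

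In lung 4 of the 19 calls had a low mean signal, and the widest differences were among them. Kcne3 read 7.37, 6.80 and 6.83 in C3HeB/FeJ and 6.59, 5.97 and 6.62 in DBA2/J, against 4.52 to 5.22 on the 12 arrays of the other strains. C3HeB/FeJ exceeded 129S2 by 2.45 ± 0.194 (SE), 5.46-fold, with an adjusted p of 3.16e-07, and by 2.54 without C3HeB/FeJ 3. In testis the same gene was lowest in C3HeB/FeJ. Kcnd2 in lung was highest in C3HeB/FeJ, at 6.11, 5.66 and 6.93, and lowest in C57BL/6J, at 4.88, 5.02 and 4.83 (range 1.32 ± 0.209 SE, adjusted p 0.0022). None of its 3 other probe sets passed for that contrast. The highest array was C3HeB/FeJ 3, which stood apart for muscle markers. Heart muscle markers also moved with this gene, with means of 9.88 to 11.65 in C3HeB/FeJ and 7.84 to 9.46 in C57BL/6J. Without that array the range was 0.974 (adjusted p 0.000209), and the part of the other markers was not tested.

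Of the lung genes with a higher signal, Kcnk2 was widest. It read 8.69, 8.61 and 8.19 in C3HeB/FeJ and 9.45, 9.30 and 9.61 in DBA2/J, without overlap. DBA2/J was 0.958 ± 0.125 (SE) higher with an adjusted p of 0.000179, and 0.804 higher without C3HeB/FeJ 3. Kcnmb4, an accessory subunit of Kcnma1, was highest in 129S2 (7.81 ± 0.11) and lowest in C3HeB/FeJ (7.10 ± 0.17), with an adjusted p of 0.000296 and a range of 0.622 without C3HeB/FeJ 3. Kcnmb1, the smooth muscle subunit of the same channel, was highest in DBA2/J (6.87 ± 0.22) and lowest in A/J (6.09 ± 0.06), with an adjusted p of 0.00265. Its other probe set did not pass for that contrast. Kcnj8, an ATP-sensitive pore of vascular muscle, was also highest in DBA2/J (7.86 ± 0.24) and lowest in A/J (7.20 ± 0.19), at 0.000904. The mean of 6 smooth muscle markers was 10.52 to 10.60 in DBA2/J and 9.98 to 10.03 in A/J, and its part in both results was not tested.

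The other lung calls were weaker. Kcne4, an inhibitory accessory subunit, ranged over 0.753 from DBA2/J to AKR/J (adjusted p 0.0313). Leaving out 129S2 2 or 3, DBA2/J 1 or 3, or AKR/J 2 or 3 ended that call (up to 0.0769). Kcne2 ranged over 0.722 from C57BL/6J to 129S2 (0.0226) and was lost without C57BL/6J 2 (0.0538) or 4 (0.0527). Kcnk5 ranged over 0.659 from AKR/J to 129S2 (0.0236) and was lost without 129S2 1 (0.0513) or 2 (0.0506). Kcnk3 ranged over 0.636 from C3HeB/FeJ to AKR/J (0.0218) and was lost without AKR/J 1 (0.0515), although 2 other probe sets gave 1.03 and 0.431 for the same contrast. Without C3HeB/FeJ 3 its range was 0.507 (0.0379).

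In liver most of these genes had a low signal, and the widest difference belonged to Kcnk1. It read 7.82, 5.70 and 8.30 in AKR/J, against 4.14 to 5.81 on the arrays of the other strains. The second AKR/J array thus overlapped with C3HeB/FeJ, while the other AKR/J arrays stood well above. AKR/J exceeded 129S2 by 3.00 ± 0.443 (SE), 7.97-fold, with an adjusted p of 0.000214, and the other probe set gave 2.13. The 4 bile duct markers averaged 5.25 to 5.45 in AKR/J and 5.18 to 5.58 elsewhere. Kcnn2 was bright enough to compare more closely. It read 8.28, 8.14 and 8.09 in A/J and 8.32, 7.95 and 7.90 in 129S2, against 6.99, 7.23 and 7.31 in C57BL/6J and 7.24, 7.16 and 7.32 in DBA2/J. The high and low strains did not overlap, and A/J exceeded C57BL/6J by 0.995 ± 0.118 (SE, adjusted p 6.25e-06).

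The other liver calls at that level were smaller. Kcnq1ot1, the non-coding RNA antisense to Kcnq1, was 7.08 ± 0.37 in DBA2/J and 6.47 ± 0.15 in 129S2 (adjusted p 0.0147). Without DBA2/J 3 the difference was 0.396 (adjusted p 0.00678), and none of its 5 other probe sets passed for that contrast. Whether antisense and sense signal were separated depends on probes not examined here. Kcnk6, a tandem-pore leak channel, was highest in C57BL/6J (6.51 ± 0.18) and lowest in AKR/J (5.92 ± 0.10), with an adjusted p of 0.000377. Kcnj11 was called at 0.0391 with a range of 0.3, and 11 of the 18 fits without 1 array ended that call (up to 0.0764).

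The test of strain by tissue over all arrays passed for 49 of the 82 members, or 59.8% (72.4% of all genes). Across genes with a mean of at least 6 in both tissues, 69 strain pairs passed in 2 tissues, and 26 of these, in 11 genes, had opposite signs (37.7%, against 17.6% of such pairs over all genes). The pairs of a gene share arrays, and these shares were not tested against each other. Kcnk2 gave the clearest case. DBA2/J exceeded AKR/J by 0.231 ± 0.054 (SE) in brain and by 0.631 ± 0.125 in lung, and the difference was -1.02 ± 0.059 in testis, with adjusted p-values of 0.013, 0.00308 and 5.95e-10. For Kcnk1, DBA2/J minus AKR/J was 0.356 ± 0.065 in brain and 0.711 ± 0.130 in kidney, and -1.11 ± 0.246 in testis. For Kcnj16 DBA2/J exceeded AKR/J by 1.09 ± 0.196 in brain and the difference was -0.318 ± 0.068 in kidney. Kcnn2 in C57BL/6J exceeded 129S2 by 0.595 ± 0.174 in heart (adjusted p of the pair 0.04964) and the difference was -0.881 ± 0.118 in liver (4.369e-05). C57BL/6J kidney, liver and testis came from other animals than its brain, heart and lung, so for that strain tissue and animal cannot be told apart.

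Genes that work with these channels but carry other names were described from lists. Of 18 partner proteins measured, the test was passed by 7 in testis (40.5% of all genes), 6 in lung (32.5%), 5 in heart (21.0%), 4 in brain (23.1%), 4 in kidney (46.1%) and 2 in liver (31.6%). In testis, lung, heart and brain these counts are near the shares of all genes. In brain all 4 were small, the widest being Cntn2, a cell adhesion protein that helps cluster Shaker channels at axons, over 0.327 (adjusted p 0.007). In heart Akap9, which anchors kinases at Kcnq1, ranged over 0.931 from C3HeB/FeJ to 129S2 (0.000991). Of 9 potassium pumps and cotransporters measured, none passed in brain, where the test called 23.1% of all genes. The test was passed by 6 in kidney (46.1% of all genes), 3 in heart (21.0%), 5 in testis (40.5%), 5 in lung (32.5%) and 5 in liver (31.6%). Slc12a2, the sodium-potassium-chloride cotransporter, was highest in AKR/J in heart (9.54, against 8.08 in C57BL/6J, adjusted p 9.82e-08) and in lung (12.61, against 11.48 in C57BL/6J, adjusted p 7.34e-07). In kidney its relative Slc12a1 was highest in 129S2 (13.11) and lowest in C3HeB/FeJ (12.49, adjusted p 6.93e-07). The 2 pacemaker channel genes measured passed in no tissue.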

How the data were processed

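Total RNA of 6 tissues from 6 mouse strains was hybridised to arrays, 18 per tissue. The authors deposited log2 signals, made with RMA per the submitters' processing notes, whose version is not stated; the annotation pairs probe sets with gene symbols. Probe sets with 1 gene were kept and the brightest per gene over all tissues was used, giving 18193 genes. No detection values were used, so precision rests on the 3 arrays per group. Strain means were compared within each tissue with limma 3.58.1 (R 4.3.3): a moderated F test, the 15 strain pairs, and, over all arrays with the animal as a random block, the strain-by-tissue contrasts. Adjusted p-values are Benjamini-Hochberg over all genes tested (for pairs, over genes and pairs), called under 0.05. The script was tested on simulated data.

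The members, lists and tests were chosen with earlier results of these data known. Genes named are the called members with a mean of at least 6 and the widest ranges of strain means (up to 14 in brain, 12 in heart and 8 in each other tissue), members of role lists, and the widest calls below 6. The alternatives were probe set choice, scaling, filter, variance prior, array weights, replicate block and leaving out each array. Those without 2 brain arrays and with the atrial markers as a covariate were chosen after seeing the data.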

Additional observations from a re-analysis of the deposited data

Results flagged for a closer look

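For 11 genes a strain pair passed in 2 tissues with opposite signs, and the F test of the strain-by-tissue contrasts passed. The adjusted p-values of that test (limma) were 7.476e-19 for Kcnk2, 2.728e-13 for Kcnk1, 8.524e-06 for Kcnj16 and 8.001e-09 for Kcnn2, whose differences are given above. For Kcnip2 (5.214e-11), DBA2/J minus 129S2 was 0.526 in heart (adjusted p 0.0486, lost in 9 of the 18 fits without 1 array, and 0.252 with the atrial markers as a covariate) and -0.575 in testis. For Kcnab2 (1.062e-07), 129S2 minus C3HeB/FeJ was -0.264 in brain (adjusted p of the pair 0.04896) and 0.747 in testis. The brain F test of Kcnab2 did not pass on the 18 arrays (adjusted p 0.08698). It passed without 129S2 2 and AKR/J 2 (0.007197). For Kcnmb4 (3.857e-08), DBA2/J minus C3HeB/FeJ was 0.353 in lung and -0.208 in testis. For Kcnd3 (7.597e-07), DBA2/J minus AKR/J was 0.512 in lung and -0.444 in testis. None of the 3 other Kcnd3 probe sets passed for the contrast of highest and lowest strain in either tissue. For Kcnj8 (1.936e-06), A/J minus 129S2 was 0.392 in kidney and -0.490 in lung. For Kcnn4 (2.509e-06), A/J minus 129S2 was -0.610 in lung and 0.425 in testis. For Kcnab3 (0.02857), C57BL/6J minus AKR/J was -0.296 in brain and 0.374 in testis, and without the brain arrays 129S2 2 and AKR/J 2 its adjusted p was 0.0674. Without those arrays the test still passed for Kcnab2 (6.743e-08), Kcnj16 (4.876e-11), Kcnk1 (7.273e-13) and Kcnk2 (3.251e-18).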

How the results depend on the processing

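Counts of called members moved by more than 1.5 times in 4 cases. Array weights gave 19 in heart in place of 12, while the calls over all 18193 genes rose from 3824 to 5046. Testing only genes with a mean of at least 6, which tests fewer genes, gave 12 in kidney in place of 20, 4 in liver in place of 13, and 28 in place of 49 for the strain-by-tissue test. With that filter 7650 of 11112 genes were called in kidney, in place of 8389 of 18193. In liver 4954 of 8875 were called, in place of 5756 of 18193. Leaving out 1 array at a time gave 25 to 31 called members in testis, 17 to 23 in brain, 17 to 23 in lung, 15 to 22 in kidney, 9 to 15 in liver and 8 to 17 in heart. Calls over all genes moved too in these fits, from 3391 to 4762 in brain, 7711 to 8237 in kidney and 3054 to 4576 in heart. Leaving out 1 animal gave 45 to 51 for the strain-by-tissue test. Strain pairs called ran from 155 to 171 in testis, 82 to 118 in brain, 78 to 125 in lung, 88 to 109 in kidney, 50 to 62 in liver and 38 to 91 in heart. The 91 in heart, against 57 with all arrays, came without 129S2 3, and the cause was not tested. A replicate block on the title numbers gave 31 members in testis, 20 in brain, 19 in lung, 20 in kidney, 13 in liver and 12 in heart. Over all genes it called 3946 in brain, 8531 in kidney, 5693 in liver and 3686 in heart. Deviations from the strain means correlated at a median of -0.0104 to 0.0719 by tissue between same-numbered arrays of different strains. Between arrays with different numbers the median was -0.0143 to 0.00647. Single same-numbered pairs in heart ran from -0.504 to 0.526. Whether the numbers mark arrays handled together was not tested. Directions reversed in brain for Kcnj9 (-0.3485 for the mean of all probe sets, -1.396 for the probe set brightest in brain, with or without the 2 arrays), Kcnh1 (-0.03564 for the probe set brightest in brain, -0.0568 also without the 2 arrays) and Kcnma1 (-0.0121 for that choice without the 2 arrays), and in liver for Kcnmb1 (-0.2469). Of 3489 values of single genes under alternatives, 3097 kept direction and call, 365 lost the call, 20 gained it and 7 reversed. Of the 119 calls, 67 were of genes with other probe sets. For the contrast of highest and lowest strain, at least 1 other probe set passed in the same direction in 33 of the 67. At least 1 passed in the opposite direction in 1 call, and none passed in 33. With 3 arrays per strain, differences that miss the threshold are not shown to be absent.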
